A study of Mus musculus with 2 samples.

Results

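The genes described here are 10 activity-induced immediate early genes, chosen by name with earlier results of these data known: Fos, Fosb, Jun, Junb, Egr1, Egr3, Nr4a1, Npas4, Arc and Homer1. All 10 were found among the 30223 gene symbols of a table of single hippocampal cells, and they were followed over neurons and glia of both genotypes. The wild-type control library held 7094 cells and the Pigv341E homozygous knock-in library 8836. Pigv codes for an enzyme that adds mannose during the making of glycosylphosphatidylinositol anchors, and the knock-in mice carry the 341E allele on both chromosomes.

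Both genotypes were on the strain C57Bl.6/J, and the age and sex of the mice are not given in the sources used here. For each genotype, the 8 hippocampi of 4 mice were pooled, dissociated by mechanical force in the cold and made into 1 droplet library of the 10x Genomics system. Each genotype is thus 1 sample, no library has a replicate, and the effects of genotype, library, pool and dissociation cannot be told apart. No p-value is given, and every difference between the libraries below is a difference between these 2 libraries.

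Immediate early genes are transcribed within minutes of a stimulus by factors that are already present in the cell, so that no protein has to be made first. In neurons the stimulus is typically calcium entry after synaptic activity, which acts through CREB, SRF with its ELK partners, and MEF2. Several of the same genes, above all those of the AP-1 family, also respond to growth factors, to injury and to taking tissue apart, in glia as well as in neurons. Because of this double use, the levels are given for each class of cells separately, beside genes that mark heat shock and the activation of isolated microglia.

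The 250 bases upstream of a transcription start are shown for 4 of the genes, Fos, Nr4a1, Homer1 and Jun, which were chosen with their levels known. RefSeq windows on GRCm38.p6 were found for 7 of the 10 genes (not for Arc, Egr1 and Egr3), and no base of the windows printed is exonic. Capitals mark TGACG or its reverse complement CGTCA, the core of the cyclic AMP response element that CREB binds, searched on both strands; a match is a run of letters and not a site.

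Fos, chr12:85473640-85473889, plus strand: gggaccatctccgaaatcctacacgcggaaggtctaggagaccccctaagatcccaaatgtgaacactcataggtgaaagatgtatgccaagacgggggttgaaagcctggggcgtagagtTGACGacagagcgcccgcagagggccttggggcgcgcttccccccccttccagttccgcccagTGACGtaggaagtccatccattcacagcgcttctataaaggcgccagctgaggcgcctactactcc
Nr4a1, chr15:101266596-101266845, plus strand: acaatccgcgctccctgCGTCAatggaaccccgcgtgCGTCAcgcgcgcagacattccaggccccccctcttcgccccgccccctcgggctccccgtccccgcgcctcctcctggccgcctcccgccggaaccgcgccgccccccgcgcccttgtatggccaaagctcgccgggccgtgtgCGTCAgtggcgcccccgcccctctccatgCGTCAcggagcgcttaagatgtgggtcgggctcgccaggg
Homer1, chr13:93303507-93303756, plus strand: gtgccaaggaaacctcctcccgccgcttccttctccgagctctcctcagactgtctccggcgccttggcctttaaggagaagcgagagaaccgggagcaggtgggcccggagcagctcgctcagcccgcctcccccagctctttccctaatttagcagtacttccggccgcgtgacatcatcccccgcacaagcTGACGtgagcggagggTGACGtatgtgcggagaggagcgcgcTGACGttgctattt
Jun, chr4:95052223-95052472, minus strand: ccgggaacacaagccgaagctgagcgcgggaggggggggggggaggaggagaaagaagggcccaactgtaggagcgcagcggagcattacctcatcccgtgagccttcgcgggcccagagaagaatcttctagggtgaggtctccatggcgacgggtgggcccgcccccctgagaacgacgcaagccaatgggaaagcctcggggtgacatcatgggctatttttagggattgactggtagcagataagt

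The Nr4a1 window held 4 matches, and 4 or more were found in 0.137% of 32851 mouse windows of the same length. The first of the 2 Homer1 windows held 3 (3 or more in 0.688% of windows), and the other, at chr13:93307784-93308033, held 0. The Fos window held 2 (2 or more in 3.90%), those of Fosb and Junb 1 each, and that of Jun 0, while 17.8% of all windows held at least 1. Npas4 had 2, in a window that is exonic over its whole length. The whole palindrome TGACGTCA (1.55% of windows), the AP-1 motif TGANTCA (6.75%) and the CArG box bound by SRF (1.47%) had no match in any of the windows of these 7 genes, and GCGNGGGCG, the EGR motif (4.70%), had 1 each in those of Fosb and Nr4a1. A window without a match says only that these letters are not in it. Whether the matches bear on the levels of the genes was not tested. Junb, which like Nr4a1 and Homer1 was higher in pyramidal-like than in granule-like cells, had 1 match. The Nr4a1 and Homer1 windows lie inside the gene bodies of GENCODE M21 (chr15:101254269-101274795 and chr13:93299635-93405129), upstream of the start that RefSeq gives.

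The deposited values are whole numbers that the authors had corrected for depth, so they are not molecule counts. The total per cell lay between 4846 and 14501, with a median of 8631 in wild-type and 9608 in knock-in cells. The median number of genes with a value above 0 was 3122 and 3736, and a share of cells above 0 is therefore easier to reach in the knock-in library. The mitochondrial percentage over all cells was 0.346% (wild-type) and 0.517% (knock-in), and the ribosomal percentage 0.450% and 0.536%. A total of 28 cell barcodes occurred in both libraries. A level, here, is a gene's summed value in a class of cells per 10000 of the summed value of all genes there. A share is the percentage of cells with a value above 0, with an exact Clopper-Pearson 95% interval that covers counting error only.

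Clustering with the 10 genes and the other listed genes left out gave 35 clusters, of which 12 stayed unnamed (1366 wild-type and 1662 knock-in cells). The 10 classes used here, all with 50 cells or more in either library, were named from their markers alone, hence "-like". They comprised pyramidal-like neurons (1291 wild-type and 1845 knock-in cells), granule-like neurons of the dentate gyrus type (1457 and 1451), interneuron-like (239 and 482), Cajal-Retzius-like (63 and 101) and immature-neuron-like cells (66 and 93). The others were astrocyte-like (596 and 815), oligodendrocyte-precursor-like (210 and 303), mature-oligodendrocyte-like (950 and 988), microglia-like (684 and 899) and choroid-plexus-like cells (102 and 91). One interneuron-like cluster, with Lef1 and Otx2os1 among its leading genes, met 4 interneuron markers, 1 of them a leading gene. The other met 9, of which 3 were leading genes, so the name is less sure for the Lef1 cluster. Values for interneuron-like cells are of both clusters together. The mitochondrial percentage, wild-type value first, was 0.0439% and 0.0990% in pyramidal-like, 0.272% and 0.523% in astrocyte-like and 0.989% and 1.11% in microglia-like cells. The ribosomal percentage was 0.157% and 0.211%, 0.196% and 0.302%, and 2.39% and 2.30% in the same order. The part of these differences in the levels by class and library was not tested. Neuronal RNA was measured in glial classes too: Slc17a7, the vesicular glutamate transporter of excitatory neurons, was above 0 in 86.8% of wild-type and 89.1% of knock-in pyramidal-like cells, but also in 53.7% and 41.4% of microglia-like cells.

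Pyramidal-like neurons held the highest level of 7 of the 10 genes in both libraries, namely Fosb, Egr1, Egr3, Npas4, Nr4a1, Arc and Homer1. For each of these, both pyramidal-like values lay above both values of the next class. Fos was shared between pyramidal-like and interneuron-like cells, Jun was highest in granule-like and microglia-like cells, and Junb was highest in microglia-like cells. The map of levels by class shows the 10 patterns side by side.

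**Figure D1:**
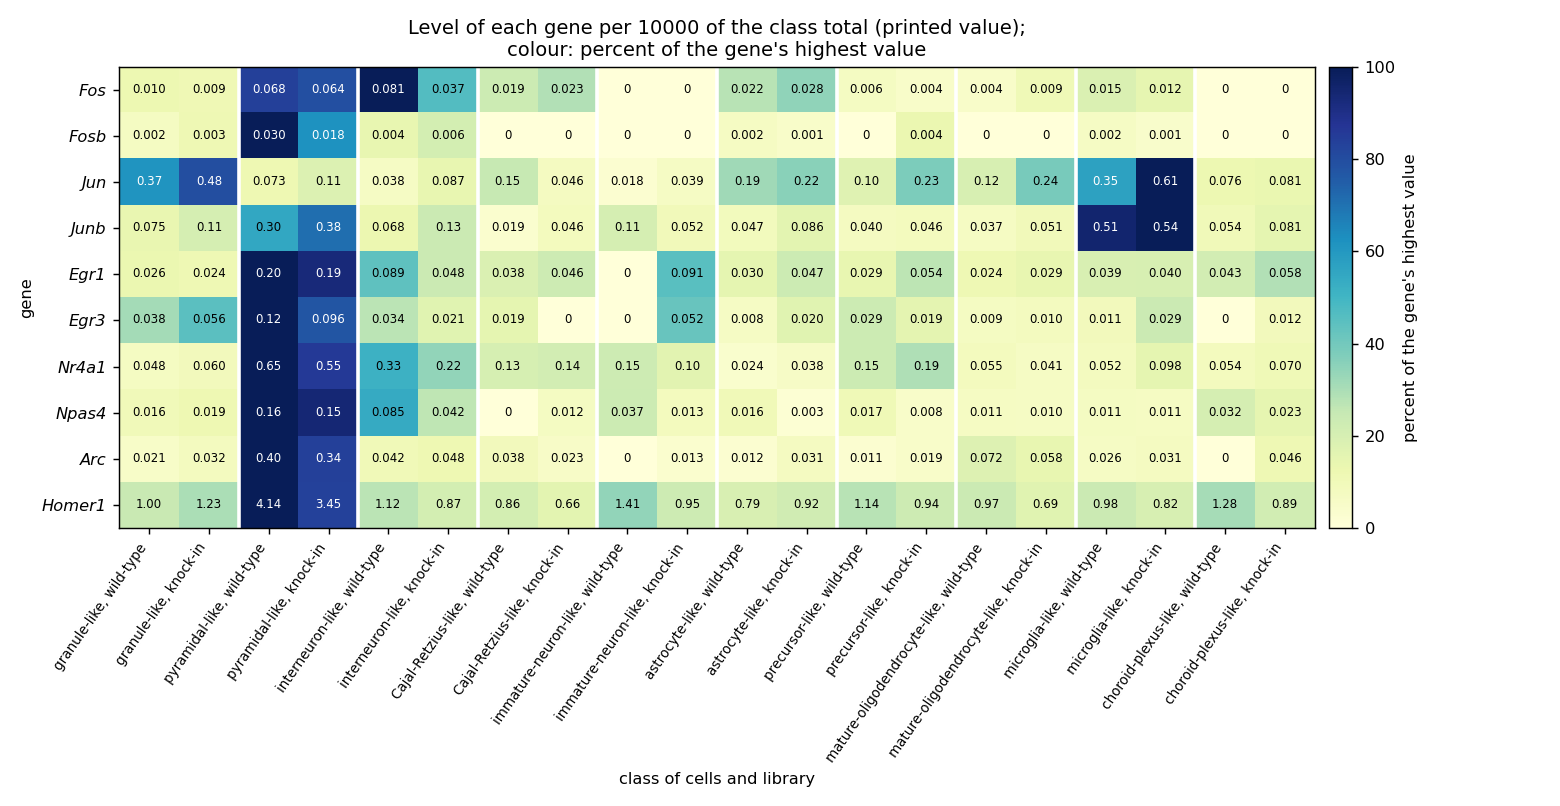
Levels of the 10 genes (rows) in 10 classes of cells, each with a wild-type and a knock-in column, printed per 10000 of the class total and coloured by the percentage of the gene's own highest value. The pyramidal-like columns are the darkest for 7 genes, whereas Jun is high in granule-like and microglia-like cells (0.371 and 0.346 in the wild-type library) and Junb in microglia-like cells (0.515).

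Of the AP-1 genes, which encode the leucine zipper proteins that pair into the AP-1 transcription factor, Fos was sparse. The Fos level in pyramidal-like cells was 0.0676 in wild-type and 0.0637 in knock-in cells, with shares of 5.50% and 4.17%. In interneuron-like cells it was 0.0806 and 0.0374, so that these 2 classes exchanged the first place between libraries. Astrocyte-like cells came next with 0.0223 and 0.0278, and the highest value in a single astrocyte-like cell was 5. Granule-like neurons had 0.00996 and 0.00905, with a value in 0.686% and 0.689% of cells, and microglia-like cells had 0.0150 and 0.0120. No immature-neuron-like or choroid-plexus-like cell had a Fos value, which allows shares of up to 4.55% and 3.23% in the former and 2.94% and 3.30% in the latter (3 cells of the class, a limit on cells with a value).

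Fosb, the FOS paralogue whose shortened product is known to build up with repeated activity, was lower still. Its level in pyramidal-like cells was 0.0299 in wild-type and 0.0185 in knock-in cells (2.48% and 1.68% of cells), which over both libraries was 15.1 times the median of the other classes. That median was 0.0016, a value near the floor. With values of 1 set to 0, Fosb was no longer among the genes highest in pyramidal-like cells. None of 950 wild-type and 988 knock-in mature-oligodendrocyte-like cells had a Fosb value (3 cells would be 0.316% and 0.304%). Interneuron-like cells came next with 0.00424 and 0.00623.

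Jun, which pairs with FOS proteins or with itself, ran against the others. Its level in granule-like neurons was 0.371 in wild-type and 0.485 in knock-in cells, and 28.1% and 36.3% of these cells had a value. In pyramidal-like neurons it was 0.0731 and 0.112 (6.66% and 10.2%). Microglia-like cells had 0.346 and 0.608, astrocyte-like cells 0.195 and 0.218, and precursor-like cells 0.103 and 0.231. Granule-like cells came first among wild-type and microglia-like cells among knock-in cells, so that the order of these 2 is not settled. Jun overlaps the antisense gene Junos, and whether counting used strand is not given in the sources used here, so reads of the 2 cannot be told apart; the same holds for Junb, which overlaps Prdx2 on the other strand.

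Junb, a JUN paralogue, was first in microglia-like cells with 0.515 and 0.541 (23.1% and 28.3% of cells) and second in pyramidal-like cells with 0.296 and 0.384 (19.4% and 22.4%). Both of these classes were apart from the one below in both libraries. Granule-like neurons, the class with the abundant Jun, had a Junb level of 0.0754 and 0.110. Astrocyte-like cells had 0.0466 and 0.0863, and mature-oligodendrocyte-like cells 0.0368 and 0.0509.

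The zinc finger factors Egr1 and Egr3 and the orphan nuclear receptor Nr4a1 followed the pyramidal pattern. The Egr1 level in pyramidal-like cells was 0.202 in wild-type and 0.188 in knock-in cells, against 0.0263 and 0.0237 in granule-like cells. Egr3 had 0.124 and 0.0963 in pyramidal-like cells and its next highest values, 0.0384 and 0.0557, in granule-like cells. Granule-like neurons were thus second for Egr3, a place that interneuron-like cells held for Egr1 in the wild-type library.

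Nr4a1 had a level of 0.646 in wild-type and 0.553 in knock-in pyramidal-like cells, with a value in 42.9% and 38.3% of them. Interneuron-like cells were second with 0.331 and 0.220, and precursor-like cells came next with 0.149 and 0.189, each apart from the class below. Granule-like neurons had 0.0476 and 0.0599. Precursor-like cells were thus the glial class with the highest Nr4a1 level of those named, ahead of microglia-like cells (0.0524 and 0.0983). Still higher Nr4a1 levels were found in 2 unnamed clusters: 1.54 and 1.49 in a cluster led by Fn1, and 1.36 and 1.12 in another, with values in 69.2% and 71.4%, and in 72.1% and 64.8%, of their cells.

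Npas4 encodes a neuronal bHLH-PAS factor that is known to be induced by calcium entry more selectively than the others. Its level was 0.158 in wild-type and 0.149 in knock-in pyramidal-like cells (11.4% and 10.8%), and 0.0849 and 0.0415 in interneuron-like cells. Every glial class had 0.0172 or less. Granule-like neurons lay close to that range, with 0.0156 and 0.0188 (1.10% and 1.31% of cells).

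Arc encodes a capsid-like postsynaptic protein that promotes the uptake of AMPA receptors. Its level in pyramidal-like cells was 0.404 in wild-type and 0.339 in knock-in cells, with values in 24.8% and 21.5% of cells, 13.9 times the median of the other classes. Second place went to mature-oligodendrocyte-like cells with 0.0723 and 0.0583 (3.37% and 3.74%). In this class Slc17a7 was above 0 in 42.0% and 31.4% of cells, and its part in the Arc values was not tested. Granule-like neurons had Arc levels of 0.0213 and 0.0320, with 1.65% and 1.79% of cells above 0.

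Homer1 encodes a postsynaptic scaffold that ties metabotropic glutamate receptors to SHANK; its short form Homer1a is the activity-induced one, and the table holds a single row in which the forms cannot be told apart. Its level was 4.14 in wild-type and 3.45 in knock-in pyramidal-like cells, and 89.6% and 88.5% of them had a value. Every other class had between 0.659 and 1.41, glia included. The Homer1 level of microglia-like cells was 0.985 and 0.817, and that of Slc17a7 in the same cells was 1.10 and 0.873, against 2.10 and 2.12 in pyramidal-like cells. How much of the glial Homer1 is RNA from neurons was not tested.

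Set as the mean of 3 neuronal classes (pyramidal-like, granule-like and interneuron-like) over the mean of 4 glial classes (astrocyte-like, precursor-like, mature-oligodendrocyte-like and microglia-like), 8 of the 10 genes were higher in neurons in both libraries (all but Jun and Junb), beside 57.6% of the 30190 genes with a value. At least 2-fold, with 0.1 added to both levels, applied to Homer1 alone (log2 ratios of 1.03 in wild-type and 1.05 in knock-in cells, with 4.1% of genes so placed). Since most genes are too low to be so placed, the shares are also given for the 12880 genes of mean level 0.05 or more over the classes, 6 of the 10 among them. Of these 58.0% were higher in neurons (4 of the 6) and 9.62% at least 2-fold (1 of the 6). Nr4a1 had 1.37 and 0.98, Arc 0.97 and 0.83, and Npas4 0.71 and 0.65. The added 0.1 pulls genes of low level towards 0, and the averages include the granule-like neurons, in which most of the genes were low. Jun was at -0.16 and -0.37.

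Within neurons the divide was between the 2 excitatory classes. Pyramidal-like cells exceeded granule-like cells at least 2-fold in both libraries for 6 of the 10 genes, where 1.64% of all genes did so, and for 5 of the 6 of mean level 0.05 or more, where 3.71% of such genes did. The log2 differences in the wild-type and knock-in library were 2.34 and 2.03 for Nr4a1, 2.06 and 1.73 for Arc, 1.94 and 1.41 for Homer1, 1.26 and 1.22 for Egr1, 1.17 and 1.20 for Junb, and 1.16 and 1.06 for Npas4. Jun went the other way at -1.44 and -1.47, and 1.04% of genes (2.41% of those of mean level 0.05 or more) were at least 2-fold higher in granule-like cells. The genes of lowest level stayed under 2-fold on this scale, with 0.61 and 0.59 for Fos, 0.35 and 0.20 for Fosb and 0.70 and 0.33 for Egr3. The plot of both excitatory classes gives all values on a log axis.

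**Figure D2:**
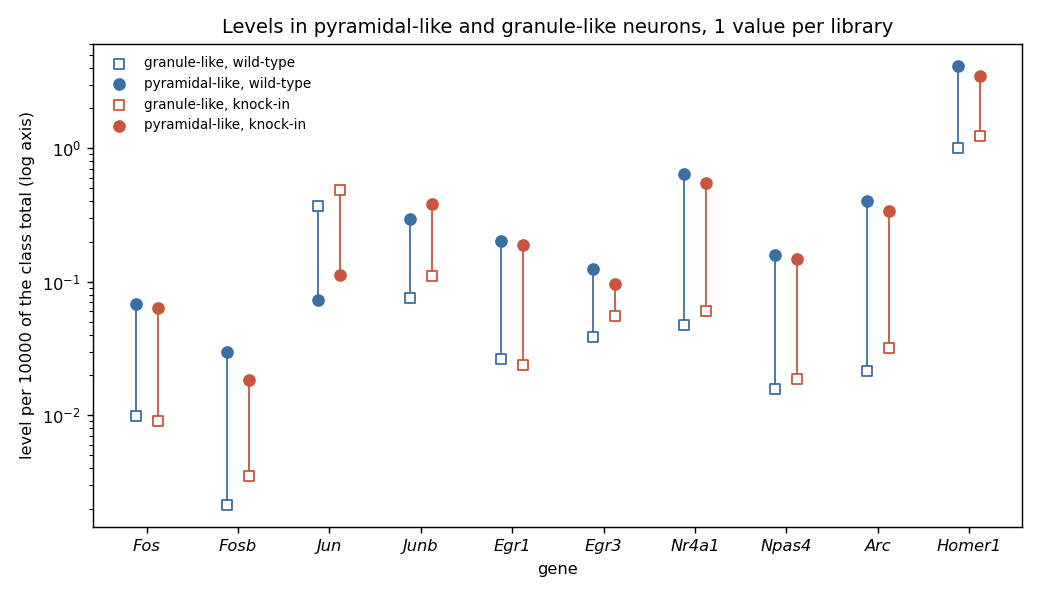
Level of each gene per 10000 of the class total (log axis) in pyramidal-like and granule-like neurons, with 1 point per class and library. Every gene except Jun lies higher in pyramidal-like cells in both libraries, for example Arc at 0.404 and 0.339 against 0.0213 and 0.0320, and Jun lies higher in granule-like cells at 0.371 and 0.485 against 0.0731 and 0.112.

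The same divide between the main glial classes held for Junb, which was at least 2-fold higher in microglia-like than in astrocyte-like cells in both libraries (log2 differences of 2.07 and 1.78, with 6.11% of all genes and 13% of those of mean level 0.05 or more so placed). Jun had 0.60 and 1.16. Over the 20 values of 10 classes and 2 libraries, Fosb and Arc had the most alike profiles of any 2 of the genes (Pearson r = 0.91), while the r of Jun with the others lay between -0.43 for Nr4a1 and 0.36 for Junb. These 20 values share 2 libraries and their neuronal background RNA, so they describe the profiles only. Among 4003 other genes of sufficient level, Hs3st4 was the most alike to Fosb, Arc and Homer1 (r = 0.91, 0.93 and 0.84), Ptpn1 to Junb (0.92), Cntnap5c to Fos (0.91) and Diaph2 to Jun (0.85). Hs3st4 is also among the markers by which the pyramidal-like class was named, so its likeness to genes high there was in part set beforehand.

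Among pyramidal-like cells the genes lay together in the same cells. Because a depth-corrected 1 can stand where no molecule was seen, cells with a value of at least 2 are compared. The plan named Fos as the first gene, which was at 2 or more in 12 wild-type and 20 knock-in cells. Its result is given at the end, and Arc is used here in its place, without a thinned result. The class pools clusters of unequal Arc shares, such as 30.3% of wild-type CA1-like and 19.3% of wild-type CA3-like cells, and the part of this was not tested. Arc was at 2 or more in 99 of 1291 wild-type and 99 of 1845 knock-in cells. Of these, 31.3% and 43.4% had Junb at 2 or more, against 2.52% and 4.07% of the other cells. Npas4 was at 2 or more in 15.2% and 21.2% against 1.26% and 0.802%, and Egr1 in 12.1% and 15.2% against 2.27% and 2.00%. Fos had 6.06% and 11.1% against 0.503% and 0.515%.

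In both libraries every other gene except Jun was found more often beside Arc than without it. Some of these comparisons rest on few cells. Among all pyramidal-like cells, Fosb was at 2 or more in 5 wild-type and 3 knock-in cells, Egr3 in 19 and 7, and Jun in 7 and 11. Jun was at 2 or more in 2.02% of wild-type and 0% of knock-in cells with Arc, against 0.419% and 0.630% without. Nr4a1 had 32.3% and 30.3% against 11.8% and 10.0%, and Homer1 93.9% and 87.9% against 66.2% and 66.8%. Pyramidal-like cells with at least 3 of the 9 genes other than Homer1 had about as many detected genes as the rest, with medians of 4222 against 4111 in the wild-type and 4314.5 against 4305 in the knock-in library.

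**Figure D3:**
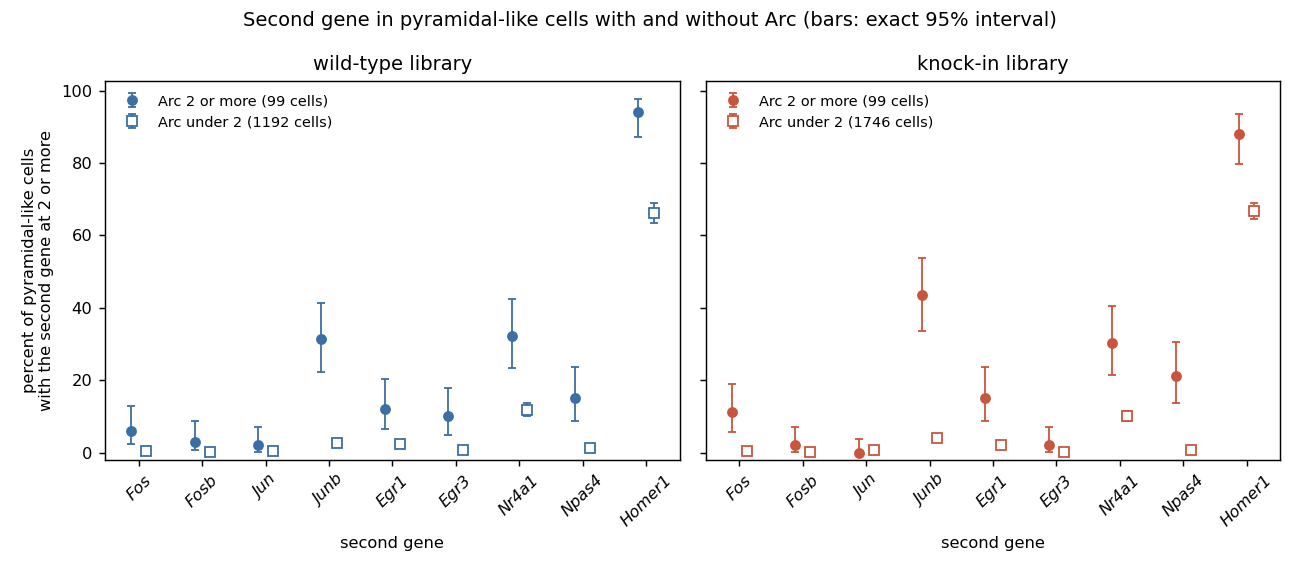
Percentage of pyramidal-like cells with a second gene at 2 or more, among cells with Arc at 2 or more and among the other cells, for each library, with exact 95% intervals that cover counting error only. Junb stands at 31.3% and 43.4% with Arc against 2.52% and 4.07% without it, and Jun is near 0 in all 4 sets of cells.

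At least 3 of the 9 genes were above 0 in 17.7% of wild-type and 15.3% of knock-in pyramidal-like cells. The shares were 3.77% and 2.70% in interneuron-like, 0.961% and 1.59% in granule-like, 1.02% and 2.22% in microglia-like, and 0.168% and 0.736% in astrocyte-like cells. In mature-oligodendrocyte-like cells they were 0% and 0.101%. When cells were thinned at random, each to a total of 1000, 0.465% and 0.488% of pyramidal-like cells (6 and 9 cells) still had 3 or more. In microglia-like cells these shares were 0.146% and 0%, and in granule-like cells 0% and 0.0689%. The genes thus met in the same cell mostly among pyramidal-like neurons, which is also where 7 of them had their highest level. Median detected genes were 4126 and 4307 in pyramidal-like, 3915 and 4197 in granule-like and 2492 and 2759 in microglia-like cells. The part of this in the shares as deposited was not tested.

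A few granule-like neurons stood far from their class in Homer1. In the knock-in library 3 of 1451 granule-like cells had Homer1 values of 163, 139 and 131, and together held 24.5% of the Homer1 sum of the class. Of these cells, 2 had a value of Fos, 2 of Jun, 2 of Egr3, 2 of Arc and 1 of Egr1. All 3 had values of Fosb, Junb, Npas4 and Nr4a1, genes found in 0.345%, 10.1%, 1.31% and 5.03% of the knock-in granule-like cells. With them the knock-in Homer1 level of the class was 1.23 against 1.00 in the wild-type library (log2 ratio 0.27), and without them it was 0.933 (log2 ratio -0.09). In the wild-type library no granule-like cell was above 30. Among wild-type pyramidal-like cells, 34 of 1291 had Homer1 at 20 or more (2.63%) and held 22.5% of the sum; 27 of these 34 also had Arc, against 23.3% of the other cells. These cells were chosen for their Homer1 value after it was seen.

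Between the genotypes, none of the 10 genes was past 2-fold in any of the 10 classes or in all cells together, with 0.1 added to both levels. Under the level minimum there are larger plain ratios, such as Jun in precursor-like cells (0.103 and 0.231) and Fos in interneuron-like cells (0.0806 and 0.0374). The size rule asked for a level of at least 0.5 and a share of at least 10% in 1 of the libraries, which 1 to 3 of the genes reached per class. Over all genes that reached these minimums, 0.242% were past 2-fold in all cells. By class the percentage was 1.09% in pyramidal-like, 0.225% in granule-like, 0.438% in interneuron-like, 2.53% in Cajal-Retzius-like and 2.41% in immature-neuron-like cells. In the other classes it was 0.625% in astrocyte-like, 0.308% in microglia-like, 0.417% in precursor-like, 0.63% in mature-oligodendrocyte-like and 3.98% in choroid-plexus-like cells. Without the minimums the count for the 10 genes in all cells was also 0, beside 0.0728% of all genes. A gene under the level minimum in the wild-type library could not be called lower by this rule, which holds for most of the 10 genes in most classes.

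In all cells the wild-type and knock-in levels were 0.0332 and 0.0262 for Fos, 0.130 and 0.121 for Arc, 0.265 and 0.256 for Nr4a1, 1.83 and 1.63 for Homer1, 0.189 and 0.255 for Jun and 0.161 and 0.215 for Junb. The median log2 ratio of knock-in over wild-type for the 10 genes was -0.03. Over the 4 of them with a level of 0.2 or more it was 0.12, so that its sign turned, and over the 8140 genes of that level it was 0.05. By class the medians were -0.10 in pyramidal-like (all genes 0.03), 0.12 in granule-like (0.05), -0.24 in interneuron-like (0.04), 0.15 in astrocyte-like (-0.01) and 0.03 in microglia-like cells (0.09). For the 2 to 5 members with a level of 0.2 or more they were -0.19, 0.29, -0.38, 0.15 and 0.06 in the same order. The class medians thus lay on both sides of 0. The makeup of the interneuron-like class differed between the libraries. The cluster with Lef1 among its leading genes, whose name is less sure, held 82 wild-type and 227 knock-in cells. The other held 157 and 255. The part of this makeup in the interneuron-like values was not tested. Jun and Junb were each higher in the knock-in library in 9 of 10 classes, and Homer1 and Npas4 each lower in 8 of 10. By class, 40.7% to 64.1% of all genes with a level of 0.2 or more were higher. All classes come from the same 2 libraries, so these counts are not independent. Some of the ratios were near 0, such as 0.06 for Junb and -0.008 for Npas4 in microglia-like cells. With values of 1 set to 0, Homer1 turned from -0.24 to 0.25 in microglia-like cells. In all cells the Jun shares were 12.5% and 16.8%, with intervals apart as deposited (34.7% of genes) and after thinning (5.19%). The Homer1 shares there were 58.8% and 54.4%, apart as deposited (4.77% of genes were lower in this way) but not after thinning.

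The clearest of these was Jun in microglia-like cells, with levels of 0.346 in wild-type and 0.608 in knock-in cells (log2 ratio 0.67). The share was 15.6% (interval up to 18.6%) against 29.4% (interval from 26.4%), where 13.6% of all genes had a knock-in share above the wild-type one with intervals apart. After thinning it was 2.19% (1.23 to 3.59%) against 5.78% (4.35 to 7.52%), where 0.812% of genes did so. Nr4a1 was also higher with intervals apart as deposited (2.19% and 5.56% of microglia-like cells), but not after thinning. Homer1 was lower, with 54.8% and 40.9% of microglia-like cells apart as deposited (4.7% of genes) and overlapping after thinning, and the Slc17a7 shares of 53.7% and 41.4% moved with it. Mature-oligodendrocyte-like cells likewise had Homer1 in 46.1% and 27%, apart as deposited (4.52% of genes) and not after thinning, beside Slc17a7 in 42.0% and 31.4%. Beside the microglial Jun, Scrublet called 2.05% and 6.90% of the microglia-like cells doublets, their median detected genes were 2492 and 2759, and without the called cells the log2 ratio was 0.69.

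The higher Jun was found in each of the 3 microglia-like clusters, a split that was looked at after the values were seen. The levels were 0.264 and 0.450 in a cluster of 188 wild-type and 154 knock-in cells, 0.168 and 0.298 in one of 240 and 348 cells, and 0.538 and 0.887 in one of 256 and 397 cells, which is led by the microglial receptors P2ry12 and Cx3cr1. In this last cluster 30.1% and 48.6% of cells had Jun, and 2.33% of genes were higher there with intervals apart. As deposited the Jun intervals overlapped in the other 2 clusters (7.98% and 16.2%, 6.25% and 13.2%), and after thinning they overlapped in all 3 (0.201% of genes were apart in the last). Homer1 was above 0 in 88.3% and 71.4%, 62.1% and 42.5%, and 23.4% and 27.7% of the cells of the 3 clusters, so that the cluster with the least Homer1 had the most Jun.

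As deposited, the share of cells with Jun was higher in the knock-in library with intervals apart in 4 further classes, and after thinning the intervals overlapped in all 4 (with 1.02%, 1.64%, 0.154% and 0.87% of genes apart after thinning, in the order given). The shares were 28.1% and 36.3% in granule-like (11.5% of genes were so placed), 6.66% and 10.2% in pyramidal-like (11.3%), 7.14% and 16.8% in precursor-like (3.05%) and 6.32% and 11.0% in mature-oligodendrocyte-like cells (5.47%). In the same 4 classes C1qa, a complement gene of microglia, was above 0 in 8.65% and 18.3%, 6.12% and 11.7%, 8.10% and 17.5%, and 7.16% and 17.1% of cells. The part of microglial RNA in these Jun shares was not tested. The makeup of the granule-like class also differed, with 332 and 733 cells in one of its 2 largest clusters and 1073 and 653 in the other. The Jun levels were 0.458 and 0.510 in the former and 0.350 and 0.478 in the latter, so that both had the higher level in knock-in cells. This split was made after the values were seen.

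**Figure D4:**
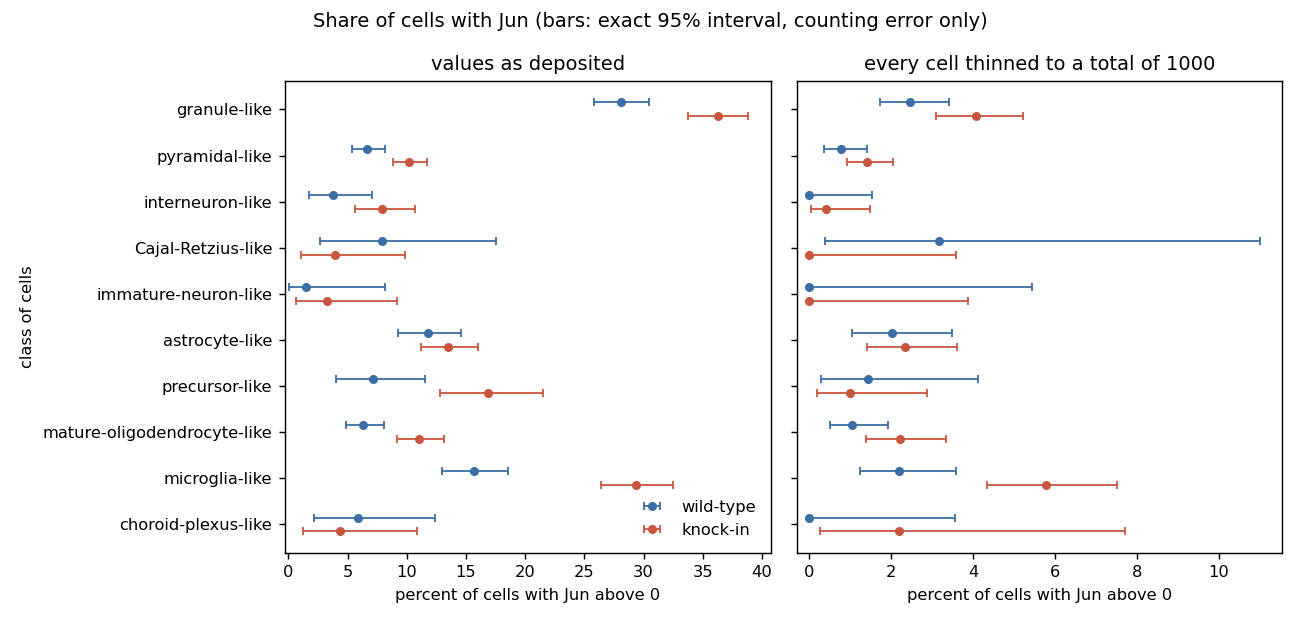
Percentage of cells with Jun above 0 by class and library, as deposited and after thinning to a total of 1000, with exact 95% intervals for counting error only. As deposited the microglia-like shares are 15.6% and 29.4%, and after thinning 2.19% and 5.78%, the only class whose thinned intervals lie apart.

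In pyramidal-like cells Arc was the gene with thinned intervals apart, at 4.03% (3.02 to 5.25%) in wild-type and 2.17% (1.55 to 2.94%) in knock-in cells, with 1.19% of genes lower in this way. As deposited the Arc shares of 24.8% (22.5 to 27.2%) and 21.5% (19.6 to 23.4%) overlapped. The makeup of the class differed: a cluster with Efna5 among its leading genes held 140 of 1291 cells in the former and 507 of 1845 in the latter library, and Arc levels there were 0.219 and 0.231. The 2 largest other clusters are therefore given on their own, a comparison chosen after the values were seen.

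In the CA3-like cluster (316 wild-type and 371 knock-in cells), 9 of the 10 genes were lower in the knock-in library, Jun being the exception, beside 40.1% of 16863 genes. Their median log2 ratio was -0.36, against 0.05 for all genes. The levels of Nr4a1 were 0.427 and 0.221, with shares of 28.5% (23.6 to 33.8%) and 16.7% (13.1 to 20.9%), and 0.842% of genes were lower with intervals apart. Arc had 0.279 and 0.145, Homer1 3.61 and 2.36, and Junb 0.193 and 0.112. Without 2 wild-type cells with Homer1 at 80 or more (a limit chosen after the values were seen), which held 14.9% of the wild-type Homer1 sum of the cluster, its levels were 3.09 and 2.36 (log2 ratio -0.38 in place of -0.60). Fos was above 0 in 9 wild-type cells and 1 knock-in cell. After thinning none of the 10 had intervals apart (0.304% of genes were lower in this way), and none was past the 2-fold rule (0.859% of genes were).

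In the CA1-like cluster (730 and 745 cells), 7 of the 10 were lower, beside 38.8% of genes, with a median of -0.10 against 0.04 for all genes. Arc stood at 0.492 and 0.489 and Npas4 at 0.179 and 0.183, so that these 2 levels were close. Nr4a1 was at 0.711 and 0.552, with shares of 47.5% and 39.5% apart (1.27% of genes). Junb differed in the other direction, with 0.317 and 0.447 and shares of 21.5% and 28.2% apart (4.45% of genes). After thinning the intervals overlapped for both genes, with 0.434% of genes lower and 0.462% higher apart. The lower Nr4a1 was seen in both clusters, the lower Arc in CA3-like cells, and whether the 2 clusters differ in their response to the allele was not tested, as there is no replicate.

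**Figure D5:**
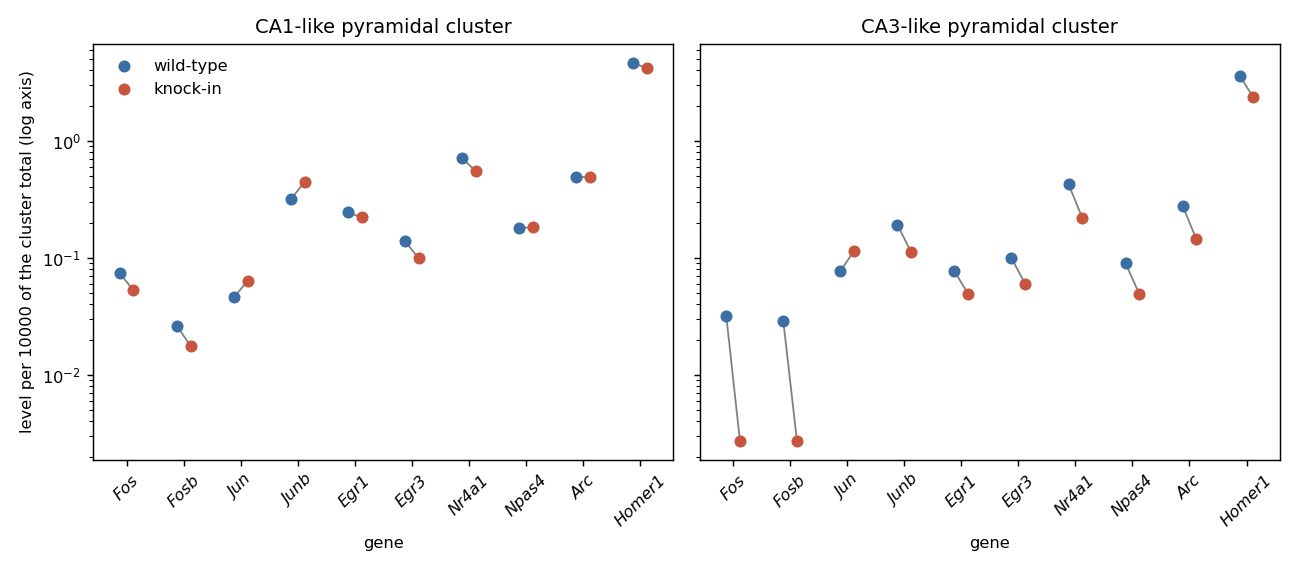
Level of each gene per 10000 of the cluster total (log axis) in the CA1-like and CA3-like pyramidal clusters, with 1 point per library joined by a line. In the CA3-like cluster 9 of 10 genes lie lower in the knock-in library, for example Nr4a1 at 0.427 and 0.221, and in the CA1-like cluster Arc is level at 0.492 and 0.489.

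At least 3 of the 9 genes other than Homer1 were above 0 in 9.81% (6.76 to 13.6%) of wild-type and 3.77% (2.08 to 6.25%) of knock-in CA3-like cells. In CA1-like cells the shares were 21.2% and 18.8%. These counts include values of 1, which can stand where no molecule was seen. After thinning, 1 of 316 wild-type and 0 of 371 knock-in CA3-like cells had 3 or more of the 9 genes. In the Efna5 cluster 4 genes were lower (36.5% of genes), with a median of 0.03 against 0.10, and in the cluster led by Hs3st4 and Cdh18 (105 and 222 cells) 5 were lower (40.9%). In this last cluster Fos was at 0.115 in wild-type and 0.210 in knock-in cells, with shares of 10.5% and 10.4%, and Junb at 0.577 and 0.661. Fosb had 0.0577 and 0.0268 and Egr3 0.106 and 0.0670 there. The direction of the genes between the libraries was therefore not shared by the 4 pyramidal-like clusters.

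Relatives of the 10 genes were read from lists. Of 7 other AP-1 genes, Jund, which unlike Jun is present in unstimulated cells, was the only one with a level of at least 0.2 in all cells, at 0.246 in wild-type and 0.329 in knock-in cells. It was 0.724 and 0.849 in microglia-like and 0.145 and 0.201 in pyramidal-like cells, so that Jund, like Junb, was higher in microglia-like than in pyramidal-like cells. Of 6 further EGR and NR4A genes with their NAB corepressors, 3 reached 0.2 in pyramidal-like cells, with a median log2 ratio of -0.26 against 0.03 for all genes. Nr4a3 had 0.769 and 0.417 there (log2 ratio -0.75, shares of 40.3% and 29.4%), and Nr4a2 0.585 and 0.473 (-0.26). Nr4a2 is also among the markers by which the class was named.

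Of 25 other rapidly induced genes, 23 were in the table, 9 reached 0.2 in microglia-like cells, and 8 of these 9 had the higher level in knock-in cells (median log2 ratio 0.10). Of all 7670 genes of that level in microglia-like cells 64.1% were higher, with a median of 0.09. Dusp6, a phosphatase that shuts off ERK, had 0.391 and 0.643 in microglia-like cells, and Rgs2 had 1.20 and 1.23. In pyramidal-like cells 4 reached 0.2, with a median of -0.09, among them Sgk1 at 1.98 and 1.84 and the clock gene Per1 at 0.436 and 0.293. None was past the 2-fold rule in these classes.

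Of 23 later effector genes, 14 reached 0.2 in pyramidal-like cells, of which knock-in cells had 9 at a higher and 5 at a lower level (median log2 ratio 0.03), where 58.3% of all genes of that level were higher. Bdnf, the growth factor gene that NPAS4 and CREB are known to act on, had 0.485 and 0.342 in pyramidal-like cells (log2 ratio -0.41) and 0.578 and 0.743 in granule-like cells (0.31). Of 12 postsynaptic partners of Arc and Homer1, 7 were at least 2-fold higher in neurons than in glia in both libraries. Grm5, the metabotropic receptor that Homer1 binds, had 22.2 and 20.4 in pyramidal-like cells, and Shank1 7.74 and 7.68. The NPAS4 partners Arnt and Arnt2 both reached 0.2 in all cells, with Arnt2 at 0.905 and 0.885 in pyramidal-like cells.

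Of 26 upstream factors and kinases, 24 were in the table and 21 reached 0.2 in all cells, with a median of -0.01 against 0.05 for all genes. Mef2c, which encodes a calcium-responsive factor upstream of several of the 10 genes, was the 1 past 2-fold in pyramidal-like cells, at 1.03 in wild-type and 3.73 in knock-in cells (log2 ratio 1.75). The size of the Efna5 cluster (140 against 507 cells) moved with it, and its part was not tested. Srf stood at 0.139 and 0.135 in the same cells.

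Genes that mark stress or the handling of tissue were measured beside these. Of 13 heat shock genes, 7 reached 0.2 in all cells, with 4 higher and 3 lower (64.0% of all genes of that level were higher) and a median of 0.03 against 0.05. The inducible Hspa1a had 0.00633 and 0.00594 in all cells and Hspa1b 0.00348 and 0.00693, while the constitutive Hspa8 had 0.542 and 0.701. In microglia-like cells 7 reached 0.2 and 6 of these had the higher level in knock-in cells, beside the 64.1% of all genes (median log2 ratio 0.15, all genes 0.09). The inducible pair was thus close to 0 in both libraries.

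Of 16 genes known to rise in microglia during isolation, 5 reached 0.2 in microglia-like cells, and knock-in cells had the higher level of all 5, beside 64.1% of all genes (median log2 ratio 0.15, all genes 0.09). Cd14 had 0.981 and 0.990, Cebpb 0.350 and 0.489, Icam1 0.358 and 0.407, Cd83 0.382 and 0.395 and Nfkbia 0.328 and 0.389. The cytokine genes of the list were low: Il1b had 0.011 and 0.019, Tnf 0.030 and 0.037, Ccl3 0.060 and 0.085 and Ccl4 0.058 and 0.114. These values stood beside the Jun and Junb levels of the same cells, and their part in them was not tested.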

How the data were processed

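Transcripts of single hippocampal cells were measured in 1 pooled library per genotype. The authors deposited 1 table of whole-number values per gene and cell, treated here as a score: they are depth-corrected, not raw counts, so the depth of sequencing is unknown, no count model was fitted and no test was made. Per the submitters' processing notes, Seurat 3.0.0 and GRCm38 were used; the aligner, the counting and the filter on cells are not given in the sources used here.

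The 10 genes and the gene lists were chosen with earlier results of these data known, and so were the markers. Cells were clustered with scanpy 1.11.5 (Python 3.11.15, igraph 0.11.9) on 2000 variable genes without the listed genes, with 30 principal components, 15 neighbours and Leiden resolution 1. To be named, a cluster needed 3 markers of a class, each above 0 in 25% of its cells and 1.5-fold over the remaining cells. Doublets were kept; Scrublet (expected rate 6%) called 61 wild-type and 209 knock-in cells, and leaving them out was an alternative. Log2 ratios have 0.1 added to both levels, and the size rule is 2-fold. Genes named beside the 10 come from lists fixed by name, at a level of 0.2 or more or as the largest differences, and a few chosen after their values were seen (Slc17a7, C1qa and the genes at low level). Shares have exact intervals (scipy 1.17.1). Positions are those of GENCODE M21 and RefSeq on GRCm38. The scripts were tested on simulated data. Alternatives were the pseudocount, the minimums, the scaling, the clustering, thinning and the doublet filter.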

Additional observations from a re-analysis of the deposited data

Results flagged for a closer look

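The difference in Homer1 between the libraries had opposite directions in 2 classes of neurons, with a log2 ratio of knock-in over wild-type of 0.27 in granule-like and -0.53 in immature-neuron-like cells. The difference between the 2 classes was not tested, as there is 1 library per genotype. The granule-like value is -0.09 without 3 knock-in cells of very high Homer1, and the immature-neuron-like value rests on 66 wild-type and 93 knock-in cells.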

How the results depend on the processing

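No paired analysis was possible because each genotype is 1 pooled library, and for the same reason no replicate could be left out. No log2 ratio between the libraries reached 1 in size on the reported settings, and over all settings 38 of 110 (10 genes in 10 classes and in all cells) took both signs, 18 of them with values of 1 set to 0, such as Egr1 in interneuron-like (-0.36 to 0.29), Homer1 in microglia-like (-0.24 to 0.25) and Nr4a1 in precursor-like cells (0.21 to -0.29). With 15 principal components 4 genes, in place of 7, were highest in pyramidal-like cells. With values of 1 set to 0, Fosb and Egr3 were no longer among the 7. Asked to be 2-fold, 1 gene in place of 8 was higher in neurons than in glia. The median log2 ratio over the members with a level of 0.2 or more in all cells was 0.12 in place of -0.03. Among pyramidal-like cells with Fos at 2 or more (12 wild-type and 20 knock-in cells), Egr1 at 2 or more was found in 8.33% and 15% and Arc in 55% of the knock-in cells; with values of 1 or more Egr1 was in 52.1% and 42.9%, and after thinning Egr1 was in 0% in both libraries and Arc in 25% in the knock-in library. Jun in microglia-like cells kept a positive log2 ratio of 0.39 to 0.78 over 12 settings. Depth-corrected values limit all of this: of the 110 log2 ratios 57 moved by 0.1 or more with a pseudocount of 0.02 and 54 with values of 1 set to 0. With 0.02 added, 5 passed 2-fold, namely Jun in precursor-like (1.02) and Cajal-Retzius-like (-1.36), Egr1 and Egr3 in immature-neuron-like (2.47 and 1.85) and Arc in choroid-plexus-like cells (1.73). Under other settings Nr4a1 reached -1.23 in mature-oligodendrocyte-like cells and Junb -1.18 in immature-neuron-like cells.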
